A study of Mus musculus with 8 samples.

Results

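The MYB and MYC network genes described here are 10 transcription factor genes of 19938 genes measured in mouse blood progenitors that had been transduced with KLF7. They are the MYB family (Myb, Mybl1 and Mybl2), the MYC genes Myc and Mycn with their partner Max, and the antagonists Mxd1, Mxd4, Mxi1 and Mnt. A probe set was taken where the platform annotation gives it 1 of these symbols and no other, and each of the 10 genes had exactly 1 such probe set. All 10 were fitted, since no filter on dim genes was applied.

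Both groups came from bone marrow of C57Bl/6 mice. Cells positive for c-Kit received a lentivirus expressing KLF7, a Krüppel-like zinc finger factor, or a control virus, and Lin- c-Kit+ Sca-1+ (KLS) cells, a mixture of stem cells and early progenitors, were sorted 72 hours later. Amplified RNA was read on 8 arrays, 4 labelled KLF7 and 4 labelled control. Both groups had thus been transduced, and the labels state neither the content of the control virus nor the age of the mice. They also do not state whether arrays of a group came from separate mice or cultures, so every p-value covers the spread between these arrays alone.

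MYB is a DNA-binding activator that immature blood cells need for self-renewal and proliferation, and its level drops as they mature. MYBL2 (B-MYB) works in dividing cells with the MuvB complex to switch on mitotic genes, while MYBL1 (A-MYB) is best known from germ cells and B cells. MYC proteins bind E-boxes as dimers with MAX and raise genes of ribosome assembly and metabolism. MXD1, MXD4, MXI1 and MNT also dimerise with MAX on E-boxes, but recruit the SIN3 corepressor, so the balance of MYC against them is often used to describe the switch between growth and maturation. In stem cells both MYC and N-MYC have been linked to survival and to release from the niche.

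Promoter sequences are given for Myb, whose level separated the groups, and for its relative Mybl2, because both windows end in the same letters just before the start site. Windows of the 250 bases before an annotated start were available from RefSeq (GRCm38.p6) for 8 of the 10 genes, not for Myc or Mybl1. Capitals mark TTGGCGGGA, a form of the E2F element, searched on both strands. It was chosen after the sequences were seen. The Myb window lies at chr10:21160985-21161234 on the minus strand and the Mybl2 window at chr2:163054385-163054634 on the plus strand, both read 5′ to 3′ towards the start.
Myb: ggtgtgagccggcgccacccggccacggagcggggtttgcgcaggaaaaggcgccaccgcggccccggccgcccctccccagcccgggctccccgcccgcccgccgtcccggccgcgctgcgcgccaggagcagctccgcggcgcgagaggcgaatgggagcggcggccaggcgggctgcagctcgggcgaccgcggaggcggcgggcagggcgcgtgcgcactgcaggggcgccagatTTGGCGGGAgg
Mybl2: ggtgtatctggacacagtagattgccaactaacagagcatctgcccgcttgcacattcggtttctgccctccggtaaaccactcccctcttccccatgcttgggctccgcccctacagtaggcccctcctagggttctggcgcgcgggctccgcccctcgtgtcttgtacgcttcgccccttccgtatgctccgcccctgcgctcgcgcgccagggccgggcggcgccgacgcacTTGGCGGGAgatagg

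The element starts 11 bases before the start of Myb and 15 bases before that of Mybl2, and 0.222% of 32851 promoter windows hold it. The Myb window was 81.2% G and C and the Mybl2 window 65.6%, against a mean of 53.2% over all windows. The Myb window also held the letters CACCC, the core bound by many Krüppel-like factors, once, and that of Mybl2 held none. On either strand 52.0% of all windows hold CACCC. Windows of Max, Mnt, Mxi1 and Mycn held CACCC too, and those of Mxd1 and Mxd4 did not. The GC box letters GGGCGG occurred 3 times in the Myb window and 4 times in that of Mybl2, and 32.7% of all windows hold them. A match is a description of these letters and not a bound site.

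Klf7 and Kit bear on these genes. The level of Klf7 checked the labels, and its log2 intensity was 11.43, 10.19, 11.05 and 10.52 on the KLF7 arrays 1 to 4 and 8.53, 10.28, 9.35 and 7.98 on the control arrays. The groups overlapped in 1 pair, KLF7 2 below control 2, with an exact two-sided permutation p of 0.0571 where 0.0286 is the smallest possible, so directions are those of the labels. Kit, which encodes the receptor used in the sort, was lower on the arrays numbered 4, at 7.85 on KLF7 4 and 8.33 on control 4, than on the other 6, which lay between 9.57 and 10.52. Array medians lay between 46.2 and 54.1 intensity units, and the number of arrays limits the precision of every difference.

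No gene passed the test over all genes. In limma, with p-values adjusted by Benjamini-Hochberg over 19938 genes, 0 genes (0%) had an adjusted p under 0.05, 1637 (8.21%) had an unadjusted p under 0.05, and the ordinary two-sample test also gave 0 after adjustment. Of the 10 network genes 0 passed, and the smallest adjusted p among them was 0.356. At an unadjusted p under 0.05 there were 2 of the 10, Myb and Myc, both lower on KLF7 arrays, and 3.56% of all genes were lower at that level. These 2 were also the genes whose groups did not overlap, and 2.38% of all genes had every KLF7 array below every control array. Of the other 8, 5 had a higher and 3 a lower mean, none with an unadjusted p under 0.129 in this fit.

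**Figure D1:**
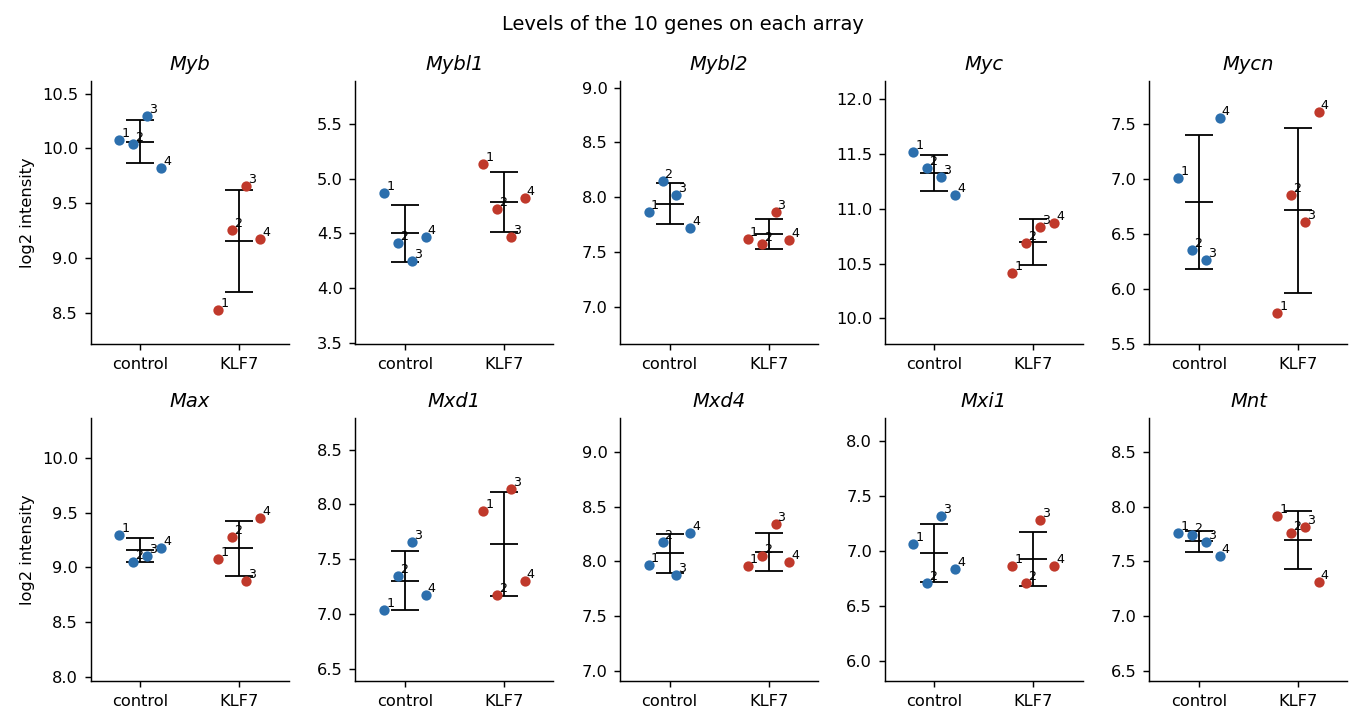
Log2 intensity of each of the 10 genes on the 4 control (blue) and 4 KLF7 (red) arrays, numbered as in the labels; every panel spans the same log2 range, and black marks give the mean and SD. The KLF7 arrays lie below the control arrays for Myb and Myc and overlap them for the other 8 genes.

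Myb, the activator of the immature compartment, had the largest difference of the 10. Its log2 intensity was 8.53, 9.26, 9.66 and 9.17 on KLF7 arrays 1 to 4 and 10.08, 10.04, 10.30 and 9.82 on control arrays 1 to 4. KLF7 1 was the lowest by far, and the highest KLF7 array, number 3, stayed below the lowest control array, number 4. The means were 9.15 ± 0.47 and 10.06 ± 0.20 (SD, n = 4 each). The difference was -0.91 (SE 0.24, 95% interval -1.45 to -0.37), or 1.88-fold lower, with an unadjusted p of 0.00366 and an adjusted p of 0.356 in limma. In 58 of 19938 genes (0.291%) the difference was as low or lower. Leaving out each array in turn gave -1.08 to -0.70, the smallest without KLF7 1.

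The other MYB genes had smaller differences, of opposite sign, with overlapping groups. Mybl2, the mitotic member, was at 7.62, 7.57, 7.87 and 7.61 on KLF7 arrays and at 7.87, 8.15, 8.02 and 7.72 on control arrays. The groups overlapped because KLF7 3 reached the level of control 1 and control 4 lay low. Its difference was -0.28 (SE 0.17, 95% interval -0.65 to 0.09, adjusted p 0.761 in limma). Mybl1 was the 1 of the 10 genes in the dimmer 50% of all genes, and stood at 5.13, 4.72, 4.47 and 4.82 on KLF7 arrays against 4.87, 4.41, 4.25 and 4.47 on control arrays. The arrays numbered 1 were the highest in both groups. Its difference was 0.28 (SE 0.17, interval -0.10 to 0.66, adjusted p 0.766 in limma), and 0.17 without KLF7 1. Without control 1 it was 0.41, with an unadjusted p of 0.0352 and an adjusted p of 0.683 in limma.

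Myc, the main E-box activator of progenitors, was lower on every KLF7 array. Its log2 intensity was 10.41, 10.69, 10.83 and 10.87 on KLF7 arrays 1 to 4 and 11.52, 11.37, 11.29 and 11.13 on control arrays. The spread within a group was narrow, at 10.70 ± 0.21 against 11.33 ± 0.16 (SD, n = 4 each), and KLF7 1 was again the lowest. The difference of -0.63 (SE 0.17, 95% interval -1.01 to -0.24) was 1.54-fold, with an unadjusted p of 0.00460 and an adjusted p of 0.368 in limma. In 300 of 19938 genes the difference was as low or lower. Leave-one-out values lay between -0.69 and -0.53. Over 22 alternative fits both Myb and Myc kept an unadjusted p under 0.05 and an adjusted p above 0.05, which ran from 0.0833 to 0.800 for Myb and from 0.156 to 0.823 for Myc.

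Mycn, which encodes N-MYC, varied more between arrays than between groups. It was at 5.78, 6.86, 6.61 and 7.61 on KLF7 arrays and at 7.01, 6.35, 6.26 and 7.56 on control arrays, so that the arrays numbered 4 were the highest of both groups. The difference was -0.08 (SE 0.39, interval -0.94 to 0.78), too wide to show a change in either direction, and it was 0.23 without KLF7 1 and -0.38 without KLF7 4. Max, the shared partner, was at 9.08, 9.28, 8.88 and 9.45 on KLF7 arrays and 9.30, 9.05, 9.10 and 9.18 on control arrays. The control arrays lay inside the range of the KLF7 arrays, and the difference was 0.02 (SE 0.18, interval -0.38 to 0.42). Its sign turned with quantile normalization applied again (-0.03) and with cyclic loess.

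For each of the 4 antagonists the groups overlapped. Mxd1, which rises in maturing myeloid cells, was at 7.94, 7.17, 8.14 and 7.30 on KLF7 arrays and 7.04, 7.35, 7.66 and 7.17 on control arrays. KLF7 1 and 3 lay above all controls, and KLF7 2 and 4 lay among them. The difference was 0.33 (SE 0.25, interval -0.22 to 0.89, adjusted p 0.821 in limma), and 0.17 without KLF7 3 or 0.51 without both arrays numbered 2.

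Mxd4 was at 7.96, 8.05, 8.34 and 7.99 on KLF7 arrays and 7.97, 8.18, 7.88 and 8.26 on control arrays, a difference of 0.01 (SE 0.17, interval -0.37 to 0.39). Mxi1 was at 6.86, 6.71, 7.28 and 6.86 against 7.06, 6.71, 7.32 and 6.84, in the same array order, a difference of -0.06 (SE 0.19, interval -0.48 to 0.37). In both groups its array 3 was the highest and its array 2 the lowest. Mnt, the antagonist that most cells express throughout the cell cycle, was at 7.91, 7.76, 7.81 and 7.31 on KLF7 arrays and 7.76, 7.74, 7.68 and 7.55 on control arrays, with array 4 the lowest of each group. Its difference was 0.02 (SE 0.18, interval -0.38 to 0.41). For these 3 genes the groups overlapped widely and the intervals leave room for a change of either sign. The sign of Mxd4 also turned with quantile normalization.

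**Figure D2:**
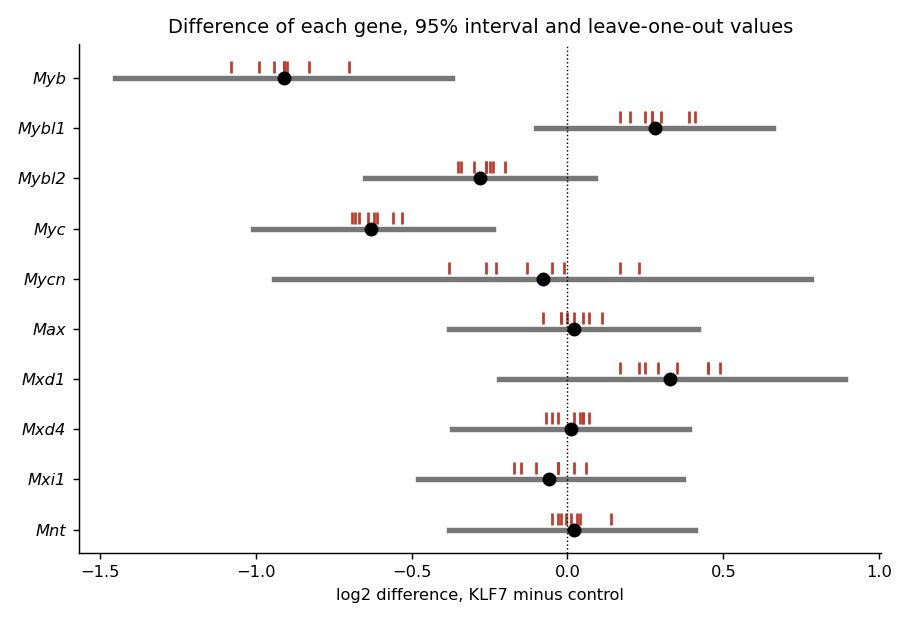
Log2 difference, KLF7 minus control, of the 10 genes (black points) with the 95% interval of the limma fit (grey bars) and the 8 values obtained by leaving out 1 array at a time (red ticks). The intervals of Myb (-1.45 to -0.37) and Myc (-1.01 to -0.24) lie below 0 and the other 8 span it.

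Activators were set against antagonists on each array after every gene had been centred on its control mean, because levels of different probe sets cannot be compared. The mean of Mxd1, Mxd4, Mxi1 and Mnt was 0.16, -0.09, 0.38 and -0.15 on KLF7 arrays 1 to 4, and -0.05, -0.01, 0.13 and -0.06 on control arrays. It overlapped between the groups. Myc minus that mean was -1.08, -0.55, -0.88 and -0.31 on KLF7 arrays and 0.25, 0.06, -0.16 and -0.14 on control arrays. The KLF7 arrays lay below the controls, with KLF7 4 nearest to them. With Mycn averaged in beside Myc, the same quantity was -1.12, -0.20, -0.72 and 0.32 against 0.26, -0.19, -0.41 and 0.34, and the groups overlapped. No test was made on these scores because the genes had been chosen with results known.

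**Figure D3:**
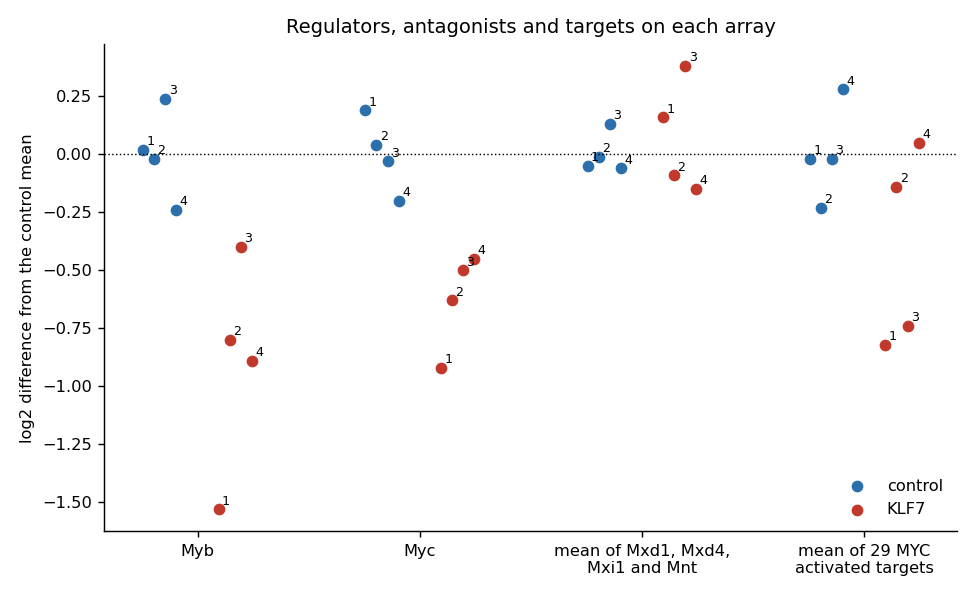
Log2 difference from the control mean of each gene, for Myb, Myc, the mean of the 4 antagonists and the mean of 29 MYC activated targets, on each control (blue) and KLF7 (red) array, numbered as in the labels. Myb and Myc separate the groups, the antagonists do not, and the target mean is low on KLF7 1 and 3 (-0.82 and -0.74) but not on KLF7 4 (0.05).

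Genes that MYC is known to activate had lower means as a list. This list, like the others, was chosen with earlier results of these data known, and no test was made on it. Of 29 measured, 27 had a lower mean on the KLF7 arrays, where 49.6% of all genes did, and the median difference was -0.43 against 0.0019 over all genes. None passed over all genes. At an unadjusted p under 0.05 stood 8 of the 29, each lower on KLF7 arrays, where 3.56% of all genes were lower at that level. They were led by Polr1b, a subunit of RNA polymerase I (-0.86, SE 0.23), Gnl3, which encodes nucleostemin (-0.65, SE 0.20), and the nucleolar genes Nop56 (-0.70, SE 0.23) and Ncl, nucleolin (-0.59, SE 0.20). On each of these 4 the KLF7 arrays lay below the control arrays, as in 2.38% of all genes. With the dimmer 50% of genes left out, 29 targets remained. Of these 8 were lower at an unadjusted p under 0.05, where 5.18% of the genes kept were.

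This list depended on single arrays more than Myc did. Its mean, centred on the controls, was -0.82, -0.14, -0.74 and 0.05 on KLF7 arrays 1 to 4 and -0.02, -0.23, -0.02 and 0.28 on control arrays. The groups overlapped, with KLF7 2 and 4 among the controls, although Myc was low on both. The count at an unadjusted p under 0.05 was 5 without KLF7 1 and 5 without KLF7 3, and 14 without KLF7 4. It was 11 without both arrays numbered 4, 10 without both numbered 2, and 5 with array medians subtracted. The share of all genes lower at that level moved too. It was 2.85% without KLF7 1, 4.49% without both arrays numbered 4 and 2.40% without both numbered 2, and is not given here for the other fits. The median of the list was -0.26 without KLF7 1.

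Of 9 measured genes that MYC is known to repress, 6 were higher on average and the median was 0.13. At an unadjusted p under 0.05 stood 3, each higher, where 4.65% of all genes were higher at that level. These were Itgb2, an integrin subunit of leukocytes (0.71, SE 0.21), Ndrg1, a stress and differentiation gene (0.58, SE 0.22), and Cdkn2b, a cyclin-dependent kinase inhibitor (0.35, SE 0.14). Cdkn2b is in the dimmer 50% of all genes. Itgb2 is also abundant in mature myeloid cells. The median was 0.02 without KLF7 1 and 0.32 without control 3.

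Turnover and partners of MYC were read from further lists. Of 18 coactivator and turnover genes, 1 was higher and 2 were lower at an unadjusted p under 0.05, and 0 passed over all genes. Among all genes 4.65% were higher and 3.56% lower at that level. Fbxw7, the ubiquitin ligase subunit that targets MYC for degradation, was at 7.79, 7.87, 7.35 and 7.07 on KLF7 arrays and 7.08, 6.40, 6.67 and 6.19 on control arrays. Only KLF7 4 and control 1 overlapped. The difference was 0.93 (SE 0.24, 1.91-fold higher, unadjusted p 0.00309, adjusted p 0.335 in limma). With its probe sets averaged Fbxw7 was at 0.65, the lowest of its values over 22 alternatives. Usp36, a nucleolar deubiquitinase that stabilises MYC, was at -0.41 (SE 0.15), with all KLF7 arrays below the controls, as in 2.38% of all genes. Kat2a, the acetyltransferase GCN5, was at -0.51 (SE 0.21).

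The corepressor and the remaining E-box genes held no member at that level. Of 10 SIN3 corepressor genes, 3 were higher and 7 lower on average (median -0.05), and the smallest p belonged to the deacetylase gene Hdac2 (-0.49, SE 0.23) and to Sap18 (-0.26, SE 0.21). Of the 6 other network genes, 2 had a higher and 4 a lower mean. Mlx, the partner of the glucose-sensing factors MLXIP and MLXIPL, was at -0.42 (SE 0.27), and Mycl, which encodes L-MYC, at 0.23 (SE 0.18). Mxd3, named after its values were seen, was the 1 of these 6 whose KLF7 arrays all lay above the controls, as in 2.83% of all genes, with a small difference of 0.16 (SE 0.13).

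Targets and partners of the MYB proteins gave mixed counts. Of 12 measured MYB targets, 8 were lower on average, where 49.6% of all genes were, and the median stood at -0.29. At an unadjusted p under 0.05 stood Myc itself, lower, and Gata3, a lymphoid transcription factor gene, higher (0.46, SE 0.18). Among all genes 3.56% were lower and 4.65% higher at that level. Gata3 is in the dimmer 50% of all genes. Mpo and Elane, granule genes of early myeloid cells that were named after their values were seen, had the lowest values of the list, at -1.11 (SE 0.75) and -1.02 (SE 0.88). They were low on the arrays numbered 4 of both groups, and their spread was larger than these differences. Kit, also a target and named outside the rule because the sort used it, was at 0.31 (SE 0.56). The list's median was -0.12 without KLF7 1.

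Of 8 MYB cofactor genes, none had an unadjusted p under 0.05, with Men1, which encodes menin, at -0.34 (SE 0.22) and Taf12, a TFIID subunit, at 0.44 (SE 0.32). Of 10 MuvB and DREAM complex genes, 3 were lower at that level, where 3.56% of all genes were, and none was higher. They were Tfdp1, the dimer partner of E2F factors (-0.69, SE 0.20), E2f4, a mainly repressive E2F (-0.48, SE 0.20), and Lin37, a MuvB subunit (-0.36, SE 0.16). With its probe sets averaged Tfdp1 was at -0.57. The count was 1 without KLF7 1 and 1 without both arrays numbered 2, where 2.85% and 2.40% of all genes were lower at that level. It was 4 without both arrays numbered 4, where 4.49% of all genes were. Of 15 mitotic targets of MYBL2 and MuvB, 11 were lower on average (median -0.18), where 49.6% of all genes were. The 1 at an unadjusted p under 0.05 was higher, Birc5, which encodes survivin (0.63, SE 0.25), and 4.65% of all genes were higher at that level. Some genes stood on more than 1 of these lists.

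**Figure D4:**
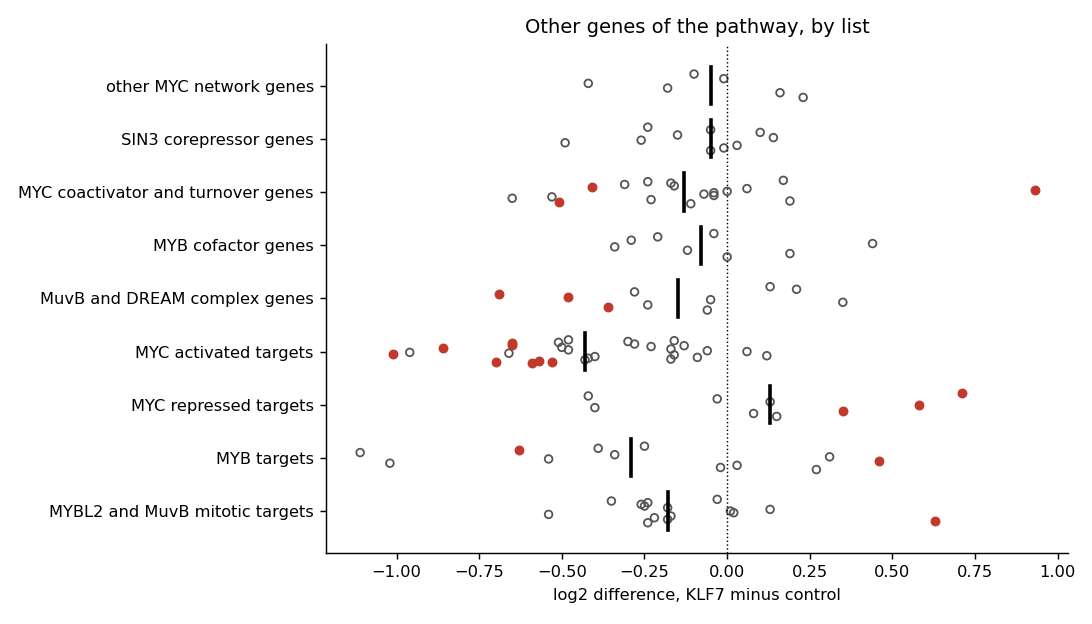
Log2 difference, KLF7 minus control, of each measured gene of 9 pathway lists; red points have an unadjusted limma p under 0.05, open points do not, and black bars are list medians. Of the MYC activated targets 27 of 29 lie below 0, and the medians of the other lists lie between -0.29 and 0.13.

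E-boxes are shown because MYC and its antagonists compete for them. The palindrome CACGTG was present in 6.02% of all promoter windows, and in the windows of 2 of the 8 network genes that had one, Mnt and Mxd4. Among windows of the MYC activated targets, 24.1% of 29 (24 genes) held it, and these windows were richer in G and C (61.3%). Of the 8 targets at an unadjusted p under 0.05, 6 had a window and 0 of these held CACGTG. No match in 250 bases says nothing of the rest of the gene. Sites of 30 bases follow for the 2 network genes and for Hspd1, a mitochondrial chaperonin gene, and Cdk4, a kinase of the G1 phase, the targets of largest difference among those with a match, both named after their values were seen. Capitals mark the palindrome, and the sites lie at chr11:74830789-74830818 (plus), chr5:34187912-34187941 (minus), chr1:55088306-55088335 (minus) and chr10:127063425-127063454 (plus), in this order.
Mnt: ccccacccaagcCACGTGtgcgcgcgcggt
Mxd4: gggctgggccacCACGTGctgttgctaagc
Hspd1: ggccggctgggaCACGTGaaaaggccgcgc
Cdk4: atagcaacaggtCACGTGgccgtcagggcc

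Mnt and Mxd4 differed by 0.02 and 0.01 between the groups, as given above. Hspd1 was at -0.48 (SE 0.27) and Cdk4, whose window held 4 such sites, at -0.40 (SE 0.29), and the smaller unadjusted p was 0.102.

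The genes whose array-to-array pattern was most like that of Myb, Myc, Mybl2 and Mxd1 were sought among the 9969 brighter genes, by Pearson correlation over the 8 arrays with each group's mean removed. They were Gna12 (0.97), Spn (0.96) and Ckap4 (0.95) for Myb, and Adam15 (0.97), Slc39a9 (0.95) and Oaz2 (0.95) for Myc. For Mybl2 they were Snx32, St6gal1 and Itpr3, each at 0.99, and for Mxd1 Rbm4b (0.98), Tedc1 (0.97) and Trim24 (0.96). The 8 arrays share their amplification and normalization, and such values are reached by picking from many genes. Of these 12 genes the groups did not overlap for Oaz2, an ornithine decarboxylase antizyme gene (-0.55, SE 0.18), and they did for Spn, which encodes CD43 (-0.04, SE 0.24). Over all genes the groups did not overlap in 2.38% with KLF7 lower and in 2.83% with KLF7 higher.

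Markers of monocytes, macrophages and dendritic cells were higher on average on the KLF7 arrays, while those of other blood cells had mixed signs. All 9 measured monocyte, macrophage and dendritic markers were on average higher on KLF7 arrays, where 49.6% of all genes were lower. At an unadjusted p under 0.05 stood 6 of them, where 4.65% of all genes were higher at that level. The summed intensity of the 9 was 12426, 6709, 6320 and 10108 on KLF7 arrays 1 to 4 and 5318, 3660, 3328 and 7740 on control arrays. The groups overlapped, since control 4 lay above KLF7 2 and 3. None of the 9 lay under the median gene level on all arrays. Neutrophil markers summed to 2105 to 18559 against 1426 to 18398, and mast cell and basophil markers to 760 to 10806 against 507 to 9105, with the arrays numbered 4 the lowest of both groups. Of 6 neutrophil markers 4 were higher and 2 lower on average, and of 6 mast cell and basophil markers 5 and 1. Of 5 megakaryocyte markers 1 was higher and 4 were lower. None of these lists held a marker with an unadjusted p under 0.05. Of the 4 measured B cell markers 3 stayed under the median gene level on every array. The 11 measured stem and progenitor markers summed to 3867 to 5857 against 3868 to 4514, and 8 of them were higher and 3 lower on average. The 1 of these 11 with an unadjusted p under 0.05 was Hlf, which encodes a PAR bZIP factor found in immature cells and is named after its values were seen. It ran from 6.29 to 7.17 on KLF7 arrays and from 7.25 to 8.03 on control arrays, so the groups did not overlap. Its difference was -0.90 (SE 0.23, adjusted p 0.327 in limma). Over all genes 3.56% were lower at an unadjusted p under 0.05, and 2.38% had every KLF7 array below every control array. The part of myeloid cells in the lower Myb and Myc was not tested. In sorted bulk RNA fewer cells of a type and less RNA per cell cannot be told apart.

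The arrays numbered 4 stood apart in both groups, and Myb and Myc were also read without them. Myb was at -0.99 and Myc at -0.75 without both arrays, with unadjusted p of 0.00753 and 0.00334. With these arrays as a batch term limma called 26 genes (0.130%) at an adjusted p under 0.05, none of them among the 10. Without both arrays numbered 2, whose Klf7 levels overlapped, Myb was at -0.95 and Myc at -0.61.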

How the data were processed

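RNA of sorted cells was amplified with the NuGen Ovation System, per the labels' protocols, and hybridised to 8 arrays. The authors deposited probe set intensities. The submitters' processing notes name RMA and Affymetrix Expression Console without versions, and no label names a genome build. The values ran from 2.20 to 15393, a linear scale, so log2 was taken. Of 35554 probe sets, 21789 carried 1 symbol in the platform annotation, and the brightest per gene gave 19938 genes. limma 3.58.1 (R 4.3.3) was fitted with group as the only term and an intensity trend, two-sided, with Benjamini-Hochberg adjustment over all genes and a threshold of 0.05.

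The 10 genes, the lists and the alternatives were chosen with earlier results of these data known. Named genes were Klf7, the 10, per list up to 4 genes with an unadjusted p under 0.05 by smallest p, or else the 2 with the smallest p, and the 3 most alike for 4 genes. Kit, Hlf, Mxd3, Mpo, Elane, Hspd1 and Cdk4 are given outside this rule. Some genes of the lists and markers were not analysed here, and counts are over those measured. Alternatives left out single arrays or both arrays of a number, added a replicate block or batch term, and changed the normalization, an intensity offset, the filter on dim genes, the probe set rule, the variance prior, array weights and the test. The fit was tested on simulated data. Figures were drawn with matplotlib 3.10.9.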

Additional observations from a re-analysis of the deposited data

Results flagged for a closer look

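Within groups of 4 arrays, 1 array lay far from the other 3, by its gap over the range, for 3 of the named genes, among 88 groups examined; chance gives about 1 in 20. Mybl2 was at 7.87 on KLF7 3, against 7.57 to 7.62 on the other KLF7 arrays. Mycl was at 6.82 on KLF7 4, against 6.21 to 6.31. Snx32, named because its pattern is like that of Mybl2, was at 7.05 on KLF7 3, against 6.30 to 6.41.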

How the results depend on the processing

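The differences of Myb, Myc, Mybl2 and Mxd1 kept their sign over 22 alternatives and that of Mybl1 over 21, because Mybl1 is among the dim genes that the filter left out. The replicate block, batch term, variance prior and test cannot change a difference in this balanced design, nor can the filter on dim genes. With 1 probe set for each of these genes the probe set rule cannot either, so these alternatives did not test the sign. None of the 10 genes had an adjusted p under 0.05 in any alternative. The number of all genes past it was 0, and 0 to 1 when single arrays were left out, 26 when the arrays numbered 4 were fitted as a batch and 90 with the replicate number as a block. The replicate block left Myb and Myc short of the threshold (adjusted p 0.0833 and 0.158 in limma). It gave Mybl1 an unadjusted p of 0.0304 and an adjusted p of 0.299 in limma. Thus 3 of the 10 genes had an unadjusted p under 0.05, Myb and Myc lower and Mybl1 higher. In that fit 5.92% of all genes were lower at that level, against 3.56% in the main fit, and the share higher is not given here. The labels do not say that a number marks a pair, so the main fit used no block. Deviations of same-numbered arrays correlated at 0.35, -0.13, 0.36 and 0.70 for numbers 1 to 4. Of the 4 numbers 3 were their own best match, number 2 not. Whether a number marks a pair was not tested, and the count of genes past the threshold depended on this choice. Signs turned for small differences. Leaving out single arrays moved Mycn between -0.38 and 0.23, Max between -0.08 and 0.11, Mxd4 between -0.07 and 0.07, Mxi1 between -0.17 and 0.06 and Mnt between -0.05 and 0.14. Among the alike genes it moved Gna12 between -0.24 and 0.11, Spn between -0.21 and 0.14, Ckap4 between -0.07 and 0.27 and Snx32 between -0.18 and 0.24. Without both arrays numbered 4, Max was at -0.07, Ckap4 at -0.04 and Snx32 at -0.13. Without both numbered 2, Max was at -0.05 and Spn at 0.01. With array weights Mycn was at 0.08, Snx32 at -0.13 and the median of the other MYC network genes at -0.15. With quantile normalization again Max was at -0.03 and Mxd4 at -0.0007, and with cyclic loess Max was at -0.0043. Leaving out single arrays moved the count of MYC activated targets at an unadjusted p under 0.05 between 5 and 14 (5 with array medians subtracted). The share of all genes lower at that level moved too, as given above. Leaving out single arrays also moved the median of the other MYC network genes between -0.19 and 0.03 and that of the MYC repressed targets between 0.02 and 0.32. The p of Klf7 was 0.00294 in limma and 0.0571 by exact permutation. The cause of these shifts was not tested. Signal over background could not be read from the deposited values.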
